A study of Mus musculus with 12 samples.

Results

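Malignant peripheral nerve sheath tumours are aggressive cancers of the cells around nerves, and RNA sequencing of 12 such mouse tumours was searched for genes that stood higher in every tumour harvested during regression than in any other tumour. The unit is CPM, each count scaled to a library total of 1000000. Of 54532 genes, 14465 had a mean of 1 CPM or more over the 12 libraries, and 50 of those had a lowest regressing value above the highest value of the other 8 libraries (0.346%). The same measure in the other direction gave 99 genes that were lower in all regressing tumours (0.684%). A search for genes above all others in the vehicle tumours gave 72 (0.498%), and in the terminal combination tumours 7 (0.0484%). The 50 genes were chosen by these CPM values of all 12 libraries, so their separation from the other tumours is a description and was not tested.

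Each group held 4 tumours. The regressing tumours were taken while they shrank, from mice dosed daily by mouth with the CDK4/6 inhibitor palbociclib (100 mg/kg) and the MEK inhibitor mirdametinib (1 mg/kg). Terminal combination tumours came from mice on the same drugs and doses and were taken at the terminal time point. Vehicle tumours came from mice given the carrier alone and were also terminal. In all 3 groups the strain is given as C57B/6 and the genotype as WT, and the tumours were started with an adenovirus carrying Cas9 against Nf1 and a gene spelled Cdk2na in the labels, read here as Cdkn2a. Age is not stated. Nothing in the labels ties each tumour to a mouse of its own, so a p-value measures the spread between these samples, and replicate numbers are names only. Drug and harvest stage both differ between regressing and vehicle tumours, and the effects of stage and drug cannot be told apart in that pair.

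Libraries held 13194699 to 22639625 counted reads, and a count of 0 allowed 0.133 to 0.227 CPM (3 counts, counting error only). Nf1 stood at 11.9 to 19.2 CPM in regressing tumours, 11.9 to 23.5 in terminal combination tumours and 10.1 to 23.8 in vehicle tumours, and Cdkn2a at 7.55 to 352 CPM in regressing tumours, 20.9 to 236 in terminal combination tumours and 5.47 to 241 in vehicle tumours. Whole-gene counts do not show whether a gene was edited. Sox10, which defines the Schwann lineage, was at or near 0: 0.531 to 1.17 CPM in regressing tumours, 0 to 2.24 in terminal combination tumours and 0 to 0.0883 in vehicle tumours. Skeletal muscle genes, 30 in the list, summed to 6380 to 72200 CPM in regressing tumours, 3970 to 46000 in terminal combination tumours and 894 to 15600 in vehicle tumours. Their sum was highest in regressing replicates 1 and 4. A title ending of FFT, unexplained in the labels, was carried by 1 regressing, 1 terminal combination and 2 vehicle libraries.

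The genes belong to several distinct kinds of biology. Antibodies are built from heavy chains and kappa or lambda light chains, and a B cell joins 1 variable (V) segment to a constant region on each chain, so that the V segments in use reflect the clones of antibody-making cells present. Fat cells secrete hormones such as adiponectin into the blood, connective tissue cells build the collagen-rich matrix, and most cells run a daily clock whose repressor and activator arms peak at opposite times of day. In whole tumours, more cells of a type and more RNA per cell cannot be told apart. Of the 50 genes, 41 encode proteins, 5 are immunoglobulin V segments, 3 are immunoglobulin constant regions and 1 is a processed pseudogene. They lie on 17 chromosomes.

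The 8 antibody genes are described first, and the ends of their V segments are shown because this is where a segment enters the most variable antigen-binding loop. Each is the last 60 bases of the GENCODE M21 transcript on GRCm38, and the capitals follow the codon of the conserved cysteine. The segments lie at chr6:70406469-70406528 (minus strand), chr6:69438218-69438277 (minus), chr6:70143593-70143652 (minus), chr6:70672318-70672377 (plus) and chr12:115158403-115158462 (minus), in the order printed.
Igkv6-15: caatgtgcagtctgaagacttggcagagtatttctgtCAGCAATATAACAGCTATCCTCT
Igkv4-59: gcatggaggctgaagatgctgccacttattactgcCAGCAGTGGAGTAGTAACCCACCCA
Igkv8-28: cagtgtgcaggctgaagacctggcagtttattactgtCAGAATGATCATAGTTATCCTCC
Igkv3-4: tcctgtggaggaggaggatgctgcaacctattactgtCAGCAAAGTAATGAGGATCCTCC
Ighv1-53: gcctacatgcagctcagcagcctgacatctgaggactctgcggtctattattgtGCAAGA
Over their whole length, pairs of the 4 kappa segments were 66.9% to 76.9% identical, Igkv6-15 and Igkv8-28 being the closest pair.

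The lambda constant genes are shown because 1 of them is nearly a copy of a gene outside the 50. These are 90 bases of the constant exon from a shared start, on the minus strand of GRCm38 at chr16:19198761-19198850, chr16:19065590-19065679 and chr16:19061980-19062069, and the capitals mark bases that differ from Iglc2.
Iglc2: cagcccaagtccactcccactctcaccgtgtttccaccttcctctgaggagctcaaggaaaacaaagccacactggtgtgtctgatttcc
Iglc3: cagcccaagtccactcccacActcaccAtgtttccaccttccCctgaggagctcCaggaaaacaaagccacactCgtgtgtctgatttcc
Iglc1: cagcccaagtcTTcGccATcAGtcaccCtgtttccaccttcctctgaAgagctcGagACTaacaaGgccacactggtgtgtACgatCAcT
Over 300 bases, compared position by position without gaps, Iglc2 was 96.3% identical to Iglc3 and 56.3% to Iglc1. Reads of Iglc2 and Iglc3 may thus have been shared between them. Without gaps the share for Iglc1 may understate its likeness, as it differed at 19 of the 90 bases printed. Iglc3 did not meet the rule: its 0.228 CPM in regressing replicate 3 was below the 1.16 CPM of vehicle replicate 4.

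Igkc, the single constant region of all kappa chains (chr6:70726435-70726966), was the most abundant antibody gene of the set. It reached 384, 907, 90.3 and 614 CPM in regressing replicates 1 to 4, with 12.4, 3.77, 19.4 and 18.6 in terminal combination replicates 1 to 4 and 9.98, 7.33, 2.57 and 85.3 in vehicle replicates 1 to 4. Regressing replicate 3 was the low tumour of its group and vehicle replicate 4 the high one of its own, and these nearly met, at a ratio of 1.06. Its mean was 499 ± 346 CPM in regressing tumours, 13.6 ± 7.24 in terminal combination tumours and 26.3 ± 39.5 in vehicle tumours (SD, n = 4 each). Per kilobase of exon Igkc averaged 938 CPM in the regressing tumours, the highest level of the 50 genes on that scale, followed by Ly6a at 358.

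Iglc1, a lambda constant region, stood at 4.51, 9.01, 0.775 and 11 CPM in regressing replicates, at 0.252, 0, 0.157 and 0.112 in terminal combination replicates and at 0.0442, 0.0705, 0.164 and 0.488 in vehicle replicates. Iglc2 stood at 4.51, 4.45, 0.638 and 8.64 CPM in regressing replicates, at 0.101, 0.0546, 0.157 and 0 in terminal combination replicates and at 0.133, 0, 0.109 and 0.244 in vehicle replicates. For both lambda genes, as for Igkc, regressing replicate 3 was lowest of its group and vehicle replicate 4 highest of the others.

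The V segments did not share a leading tumour. Igkv6-15 stood at 20.8, 2.52, 0.729 and 3.33 CPM in regressing replicates, against 0 to 0.0558 in terminal combination and 0 to 0.122 in vehicle tumours. Igkv8-28 stood at 0.513, 26.5, 0.593 and 3.11 CPM in regressing replicates, against 0 to 0.202 in terminal combination and 0 to 0.164 in vehicle tumours. A single regressing tumour thus carried most of the reads of each segment, replicate 1 for Igkv6-15 and replicate 2 for Igkv8-28. Igkv3-4 stood at 18.7, 6.85, 1.19 and 17.8 CPM, Igkv4-59 at 0.628, 6.96, 1.46 and 3.26, and the heavy-chain segment Ighv1-53 at 2.57, 11.1, 1.00 and 5.53 in regressing replicates 1 to 4. In terminal combination and vehicle tumours none of these 3 segments passed 0.793 CPM, which was Ighv1-53 in vehicle replicate 4. The lowest regressing counts behind the 5 segments ran from 9 to 26 reads.

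Across the 8 antibody genes the coefficient of variation among regressing tumours ran from 69.4% to 164%, with a median of 82.3%. Regressing replicate 3 was the lowest of its group for 6 of the 8 and replicate 1 for the other 2. Vehicle replicate 4 was the highest of the other tumours for 6 of the 8. Immunoglobulin genes made up 16% of the 50 genes and 0.194% of the genes kept. Of 28 immunoglobulin genes kept, 8 met the rule (28.6%). Among the other 20, 10 had 3 regressing tumours above all others, 6 had 2, 3 had 1 and 1 had none, and regressing replicate 3 was the low tumour for 16. All 20 had a higher mean in regressing tumours than in both other groups, as did 30.1% of all genes kept. The filter on mean CPM favours this direction for any gene nearly silent outside the regressing group. Igkv5-39 averaged at most 0.121 CPM in either other group, Ighg3 0.449 and Iglc3 0.393, so regressing values alone kept them. The same holds for the antibody genes of the set apart from Igkc, which averaged 0.0513 to 0.161 CPM over the other 8 tumours. Ighm averaged 36.8 CPM or more in every group, so the filter did not fix its direction. The immunoglobulin shares are thus descriptions, and their excess over all genes kept was not tested.

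Genes that mark the cells that make antibody were set beside these values. The 12 listed B cell genes kept summed to 65.6, 78.1, 62.3 and 334 CPM in regressing replicates 1 to 4. Their sum was 21.4 to 50.1 CPM in terminal combination tumours and 22.4 to 89.3 in vehicle tumours. Regressing replicates 1 to 3 thus lay below vehicle replicate 1, at 89.3 CPM, and replicate 4 alone lay above it. None of the 11 plasma cell genes kept was among the 50, and they summed to 801 to 1250 CPM in regressing tumours, 847 to 1020 in terminal combination tumours and 949 to 1220 in vehicle tumours. Genes other than Jchain, given next, made up most of that sum. Gene by gene, 9 of the 11 plasma cell genes and all 12 B cell genes had a higher mean in regressing tumours than in both other groups, against 30.1% of all genes kept. For genes low outside the regressing group the filter on mean CPM favours this direction, so these counts are descriptions. Only 6 listed B cell genes passed the count filter of the edgeR fit given below. Jchain, which links antibody units together, stood at 38.6, 110, 8.75 and 52.5 CPM in regressing replicates, at 0.656, 0.437, 1.1 and 3.79 in terminal combination replicates and at 2.12, 1.06, 0.328 and 10.1 in vehicle replicates. Jchain missed the rule because vehicle replicate 4 stood above regressing replicate 3. The share of the antibody signal that tracks these cells was not tested.

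**Figure D1:**
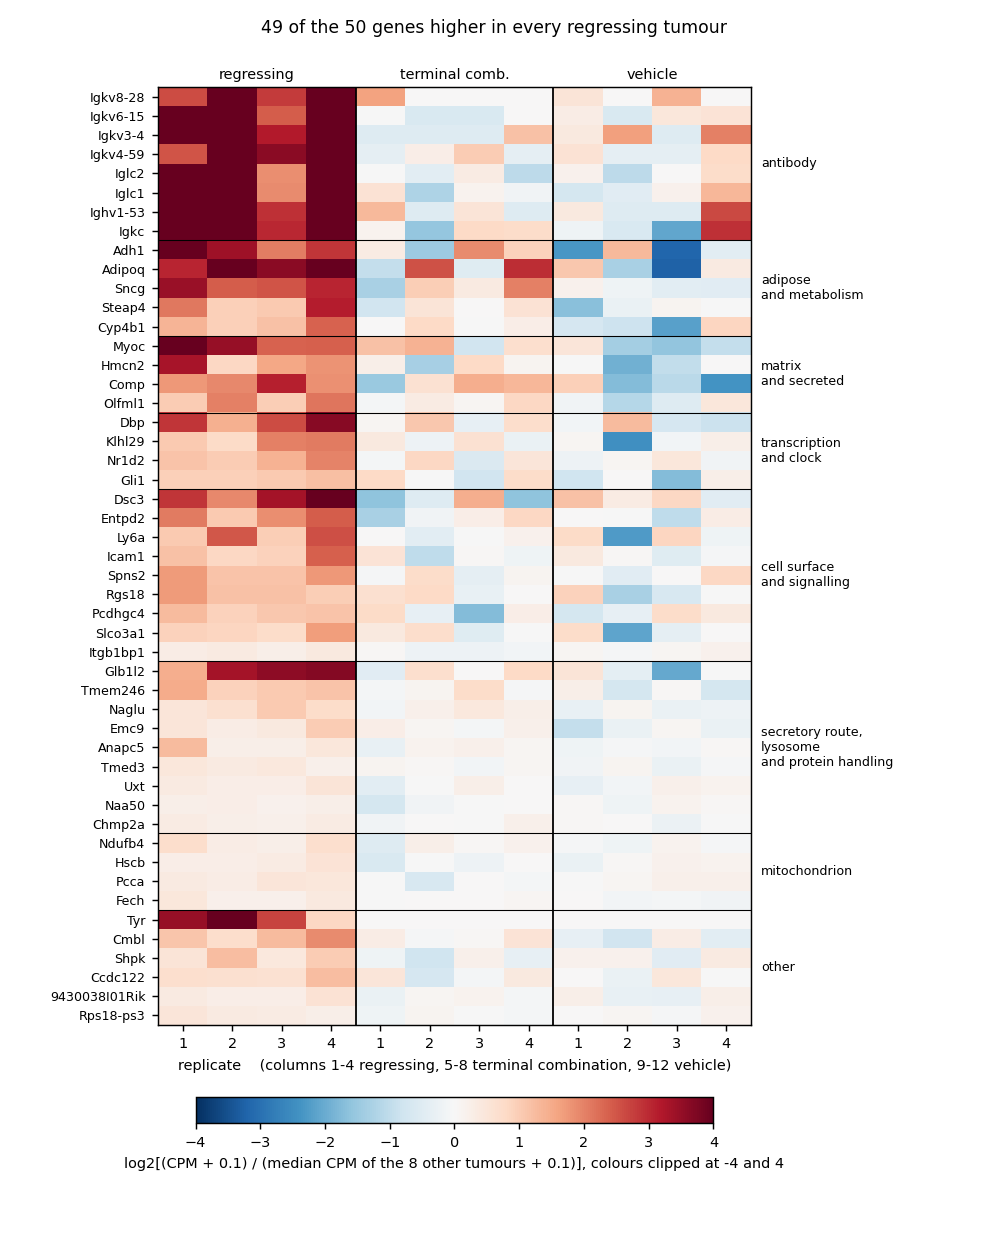
Heat map of 49 of the 50 genes (rows, in groups by role) in the 12 tumours (columns: regressing, terminal combination and vehicle replicates 1 to 4). Colour is log2 of CPM plus 0.1 over the median of the 8 other tumours plus 0.1, clipped at 4 in either direction. Antibody genes are darkest as a group, and most fat and matrix genes are dark in regressing tumours. The mitochondrial genes are pale, as are the protein-handling genes apart from Glb1l2, whose regressing mean was 11.2 times that of the other 8 tumours.

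Tyr, which encodes tyrosinase, the enzyme that begins melanin synthesis, was the single gene of the 50 with no read outside the regressing group. It had 18, 375, 12 and 1 reads in regressing replicates 1 to 4, or 1.03, 21.9, 0.547 and 0.0758 CPM, and 0 reads in all 8 terminal combination and vehicle tumours. Replicate 2 held nearly all of its reads. The 1 read of replicate 4 is within what a count of 0 allows, so the separation in that tumour was not detectable at this depth and no fold is given. Without replicate 2 the gene falls under a mean of 1 CPM.

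The 8 other pigment genes examined, chosen after the values were seen, were at or near 0 where Tyr was high. In regressing replicate 2, Pmel stood at 0.702 CPM and Dct, Tyrp1, Mlana, Oca2, Slc45a2, Gpr143 and Mc1r were at 0. The highest value of these genes in any library was 2.27 CPM for Pmel in terminal combination replicate 1. Mitf, the transcription factor that drives the pigment genes, stood at 8.02 CPM in replicate 2, the lowest of the 4 regressing tumours. The start of Tyr is shown because all other tumours had no read of it: the RefSeq window from 250 bases before to 50 after the start, GRCm38.p6, chr7:87493463-87493762, minus strand, with capitals on 2 motif matches.
Tyr: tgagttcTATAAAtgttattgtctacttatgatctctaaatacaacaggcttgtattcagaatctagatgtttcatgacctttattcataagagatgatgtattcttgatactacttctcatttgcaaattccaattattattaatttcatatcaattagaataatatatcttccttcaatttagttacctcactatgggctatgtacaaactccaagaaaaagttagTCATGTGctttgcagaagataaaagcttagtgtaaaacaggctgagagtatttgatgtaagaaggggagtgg
TCATGTG, the core of the element that Mitf binds, begins 22 bases before the start, and TATAAA begins 243 bases before it. TCATGTG on either strand was in 3.77% of 32851 windows of this length and, within the set, in those of Tyr and Myoc.

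Fat tissue and alcohol, lipid and drug metabolism gave 5 genes of the set, with mean levels 3.04 to 9.55 times those of the other 8 tumours. Adipoq, the fat cell hormone adiponectin, stood at 11.8, 23.6, 17.6 and 37.1 CPM in regressing replicates, at 0.656, 8.42, 0.939 and 11.2 in terminal combination replicates and at 3.0, 0.494, 0.0547 and 1.77 in vehicle replicates. Sncg, gamma-synuclein, which fat cells and sensory neurons express, stood at 20.2, 10, 10.5 and 15.3 CPM in regressing replicates, at 0.656, 3.61, 2.30 and 7.42 in terminal combination replicates and at 1.99, 1.55, 1.31 and 1.28 in vehicle replicates. Terminal combination replicate 4 was the highest of the other tumours for both, and came within a ratio of 1.05 of the lowest regressing tumour for Adipoq and 1.35 for Sncg. Sncg was also the member on the list of smooth muscle and pericyte genes. That list summed to 2140 to 3910 CPM in regressing tumours, 1940 to 4270 in terminal combination tumours and 1070 to 4030 in vehicle tumours.

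Adh1, an alcohol dehydrogenase that also oxidises retinol, stood at 111, 40.1, 15.8 and 27.7 CPM in regressing replicates, at 4.70, 1.31, 14.3 and 7.14 in terminal combination replicates and at 0.663, 9.45, 0.328 and 2.80 in vehicle replicates. Steap4, a metalloreductase of fat tissue, stood at 90.6, 41.0, 43.3 and 187 CPM in regressing replicates, at 12.4, 29.7, 21.2 and 31.6 in terminal combination replicates and at 6.54, 17.3, 22.7 and 20.7 in vehicle replicates. Different tumours led, replicate 1 for Adh1 and replicate 4 for Steap4. Cyp4b1, a cytochrome P450 enzyme, was much lower, at 2.69 to 7.20 CPM in regressing tumours, 1.30 to 2.40 in terminal combination tumours and 0.219 to 2.5 in vehicle tumours.

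Most fat cell genes did not meet the rule. Of 22 listed adipocyte genes kept, 2 were members and 21 had a higher mean in regressing tumours than in both other groups, against 30.1% of all genes kept. The filter on mean CPM favours that direction for genes low outside the regressing group, so the count is a description. The list summed to 701, 442, 713 and 2820 CPM in regressing replicates 1 to 4. Its sum was 198 to 928 CPM in terminal combination tumours and 107 to 308 in vehicle tumours. Plin1, the coat protein of fat droplets, stood at 3.31, 6.20, 8.66 and 24.3 CPM in regressing replicates and at 0.707, 2.35, 0.313 and 9.87 in terminal combination replicates, against 0 to 2.21 in vehicle tumours, so terminal combination replicate 4 overlapped the regressing group. None of 30 skeletal muscle genes met the rule, although 27 had the highest mean in regressing tumours. The part of fat or muscle tissue in the results was not tested.

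Secreted proteins, most of them of the matrix, are encoded by 4 genes. Comp, cartilage oligomeric matrix protein, which binds collagen fibrils in cartilage and tendon, stood at 78.4, 88.1, 204 and 83.4 CPM in regressing replicates, at 8.23, 35.7, 63.7 and 59.0 in terminal combination replicates and at 45.2, 6.98, 11 and 4.33 in vehicle replicates. Myoc, myocilin, secreted in the eye and found in muscle and nerve, stood at 16.9, 8.72, 3.97 and 4.09 CPM in regressing replicates, at 1.67, 1.97, 0.365 and 1.17 in terminal combination replicates and at 1.02, 0.212, 0.164 and 0.305 in vehicle replicates. For Comp replicate 3 was far above the other regressing tumours, and for Myoc replicate 1 was highest, followed by replicate 2. Hmcn2, a hemicentin of basement membranes, stood at 34.9, 6.26, 10.3 and 12.4 CPM in regressing replicates, against 1.31 to 6.16 in terminal combination and 0.846 to 3.54 in vehicle tumours. Olfml1, an olfactomedin-like protein, stood at 1.28 to 2.96 CPM in regressing tumours, 0.555 to 1.12 in terminal combination tumours and 0.212 to 0.854 in vehicle tumours. Comp and Entpd2 were the members among 28 listed fibroblast genes, which summed to 3840 to 5600 CPM in regressing tumours, 1760 to 5120 in terminal combination tumours and 1520 to 4640 in vehicle tumours.

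**Figure D2:**
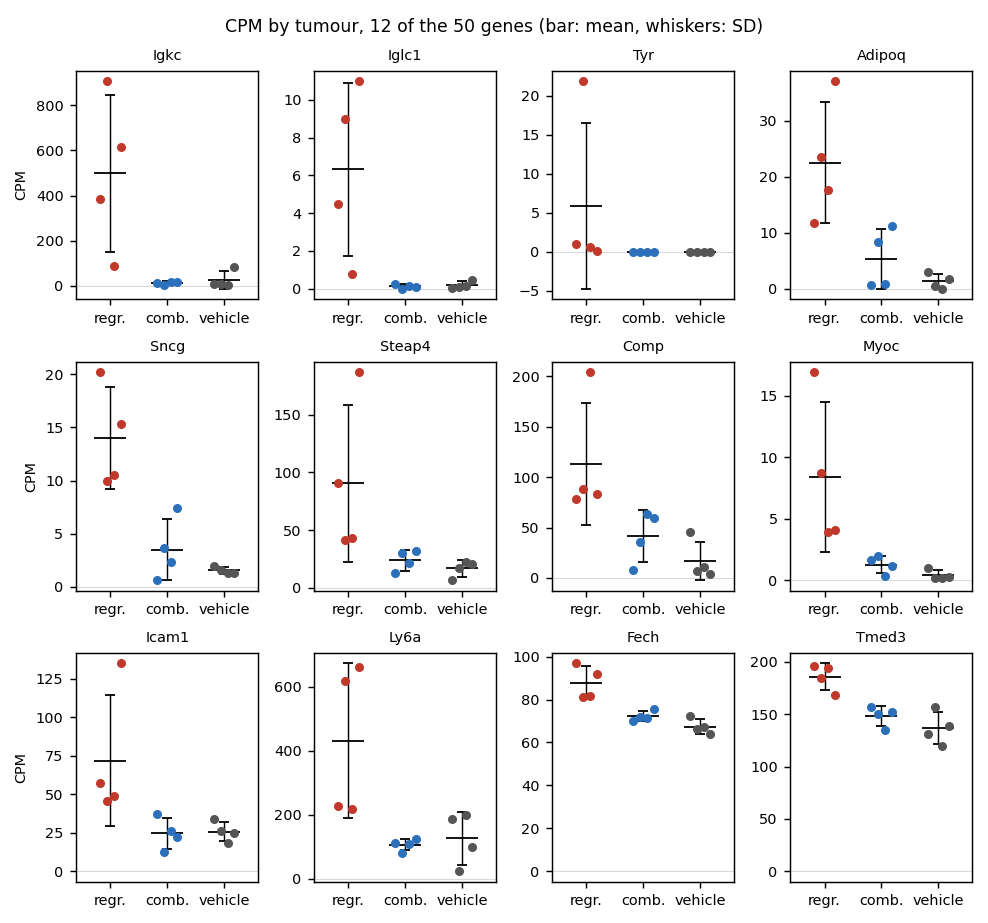
CPM of 12 of the 50 genes by tumour (points), with the group mean (bar) and SD (whiskers, n = 4) for regressing (regr.), terminal combination (comb.) and vehicle tumours; each vertical axis is linear, and a whisker may pass below 0. Igkc and Tyr are carried by a few regressing tumours, whereas Fech and Tmed3 lie in narrow groups, 81.3 to 96.8 and 168 to 196 CPM in regressing tumours.

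The cell surface and signalling gave 9 genes. Icam1, the adhesion molecule that leukocytes grip on vessel walls, stood at 57.5, 45.5, 48.8 and 135 CPM in regressing replicates, at 37.3, 12.6, 26.4 and 22.6 in terminal combination replicates and at 33.7, 26.5, 18.3 and 24.6 in vehicle replicates. Ly6a, the Sca-1 antigen of stem, stromal and activated lymphoid cells, stood at 227, 619, 218 and 661 CPM in regressing replicates, at 112, 81.2, 108 and 124 in terminal combination replicates and at 188, 22.9, 199 and 98.5 in vehicle replicates. For Icam1 replicate 4 stood apart from the other regressing tumours, and for Ly6a replicates 2 and 4 did while replicates 1 and 3 were close to vehicle replicates 1 and 3.

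Entpd2, an enzyme that degrades ATP outside the cell, stood at 18.8, 9.25, 16.3 and 23.9 CPM in regressing replicates, at 1.72, 3.99, 5.32 and 7.81 in terminal combination replicates and at 4.42, 4.37, 2.13 and 5.43 in vehicle replicates. Spns2, which exports the lymphocyte attractant sphingosine 1-phosphate, stood at 41.9, 28.1, 28.3 and 42.5 CPM in regressing replicates, at 12.4, 21.5, 9.97 and 13.8 in terminal combination replicates and at 12.7, 9.38, 12.8 and 22.5 in vehicle replicates. Both had regressing replicates 1 and 4 as the highest of their group.

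Dsc3, a desmocollin of epithelial junctions, stood at 2.11, 1.05, 2.96 and 9.40 CPM in regressing replicates, at 0, 0.109, 0.731 and 0 in terminal combination replicates and at 0.574, 0.282, 0.438 and 0.122 in vehicle replicates. Dsc3 was highest in replicate 4. The 21 keratinocyte and skin appendage genes examined, of which Dsc3 is one, summed to 234, 302, 433 and 1040 CPM in the same regressing replicates, to 188 to 360 in terminal combination tumours and to 92.4 to 322 in vehicle tumours, so their sum was also highest in regressing replicate 4. Of these 21 genes, 8 had a mean of 1 CPM or more, and the 21 include Scd1, which is also on the list of lipid handling genes. Single genes of the keratinocyte list differed. Trp63, a transcription factor of basal epithelium, stood at 2.45, 0.878, 2.46 and 8.49 CPM in regressing replicates, again highest in replicate 4. Its groups overlapped, with means of 3.57 ± 3.36 CPM in regressing tumours, 3.41 ± 3.03 in terminal combination tumours and 3.20 ± 3.15 in vehicle tumours (SD, n = 4 each). The skin keratin Krt5 stood at 0.114, 0, 20.5 and 0 CPM in regressing replicates, at 0 in all terminal combination tumours and at 0 to 6.45 in vehicle tumours. The part of skin tissue in the values of Dsc3 was not tested.

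The set held 4 more surface and signalling genes. Pcdhgc4, a gamma-protocadherin of neurons, stood at 2.52 to 3.20 CPM in regressing tumours, 0.313 to 2.22 in terminal combination tumours and 0.751 to 2.19 in vehicle tumours. Rgs18, a brake on G protein signalling in platelets, stood at 4.09 to 6.79 CPM in regressing tumours, 1.62 to 3.61 in terminal combination tumours and 0.776 to 3.93 in vehicle tumours. Slco3a1, an organic anion transporter, stood at 32.0 to 61.3 CPM in regressing tumours, 13.9 to 31.3 in terminal combination tumours and 4.37 to 32.0 in vehicle tumours, the smallest ratio of the 50. For these 3 genes the lowest regressing tumour stood at 1.00 to 1.13 times the highest other tumour. Itgb1bp1, which binds the tail of beta 1 integrin, stood at 36.2 to 40.3 CPM in regressing tumours, 26.6 to 32.0 in terminal combination tumours and 29.5 to 34.4 in vehicle tumours, with a mean 1.27 times that of the other 8 tumours.

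Transcription and the daily clock gave 4 genes, counting a kelch-like protein whose role is less defined. Dbp, an activator that the clock drives, stood at 51.0, 18.8, 43.1 and 88.2 CPM in regressing replicates, at 7.37, 14.7, 5.48 and 11.2 in terminal combination replicates and at 6.45, 16.9, 4.27 and 3.78 in vehicle replicates. Nr1d2, the repressor REV-ERB beta, stood at 53.7, 49.4, 64.3 and 96.3 CPM in regressing replicates, at 22.9, 43.4, 16.2 and 33.9 in terminal combination replicates and at 20.9, 25.7, 33.4 and 21.8 in vehicle replicates. Replicate 2 was lowest and replicate 4 highest of the regressing tumours for both genes.

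The other clock genes were read from a list of 15, all kept. Nr1d1, REV-ERB alpha, stood at 58.3, 59.8, 100 and 92.1 CPM in regressing replicates and at 22.7, 59.7, 17.2 and 53.7 in terminal combination replicates, against 15.3 to 26.2 in vehicle tumours, and missed the rule through terminal combination replicate 2. Arntl, or BMAL1, the activator that the REV-ERB proteins repress, ran the other way: 12.1, 13.3, 11.6 and 9.93 CPM in regressing replicates, 59.8, 74.9, 21.7 and 36.3 in terminal combination replicates and 31.7, 75.7, 27.3 and 16.6 in vehicle replicates, with no overlap. It is 1 of the 99 genes lower in all regressing tumours. Per1 stood at 15.4 to 37.5 CPM in regressing tumours, 18.9 to 146 in terminal combination tumours and 34.9 to 102 in vehicle tumours, and the groups overlapped. Of the 15 genes, 9 had a higher mean in regressing tumours than in both other groups. The labels give no clock time of harvest.

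**Figure D3:**
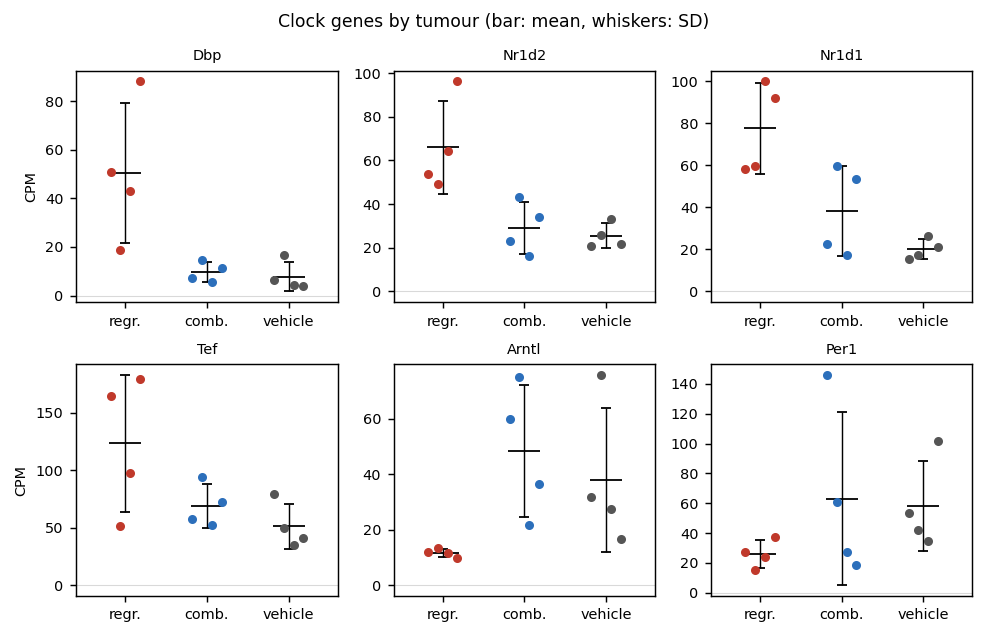
CPM of Dbp and Nr1d2, which meet the rule, and of 4 other clock genes by tumour (points), with the group mean (bar) and SD (whiskers, n = 4) for regressing (regr.), terminal combination (comb.) and vehicle tumours on linear axes. Arntl lies at 9.93 to 13.3 CPM in regressing tumours, below the other 8, while Tef and Per1 overlap between groups.

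Gli1, the effector and target of hedgehog signalling, was low and narrow at 1.60, 1.58, 1.69 and 1.89 CPM in regressing replicates, at 1.41, 0.765, 0.417 and 1.34 in terminal combination replicates and at 0.398, 0.776, 0.164 and 0.915 in vehicle replicates. Klhl29, a kelch-like protein, stood at 1.46 to 3.79 CPM in regressing tumours, 0.669 to 1.30 in terminal combination tumours and 0.0705 to 0.976 in vehicle tumours.

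The secretory route, the lysosome and protein handling gave 9 genes. Glb1l2, a protein related to beta-galactosidase, stood at 1.03, 3.98, 4.79 and 5.15 CPM in regressing replicates, at 0.202, 0.546, 0.313 and 0.614 in terminal combination replicates and at 0.486, 0.212, 0 and 0.305 in vehicle replicates. Naglu, the lysosomal enzyme that trims heparan sulphate, stood at 80.0, 88.1, 118 and 93.5 CPM in regressing replicates, at 52.2, 64.9, 76.1 and 66.4 in terminal combination replicates and at 45.7, 61.3, 47.4 and 49.0 in vehicle replicates. Glb1l2 was lowest in regressing replicate 1, and replicate 3 led for Naglu. Tmem246, an enzyme of GPI-anchor assembly, stood at 8.95 to 13.3 CPM in regressing tumours, 4.39 to 7.83 in terminal combination tumours and 2.80 to 5.57 in vehicle tumours.

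The other 6 of these genes differed by small folds. Tmed3, a cargo receptor of early secretion, stood at 168 to 196 CPM in regressing tumours, 135 to 157 in terminal combination tumours and 120 to 157 in vehicle tumours. Emc9, of the complex that inserts proteins into the endoplasmic reticulum membrane, stood at 8.02 to 13 CPM in regressing tumours, 6.10 to 7.83 in terminal combination tumours and 3.27 to 6.84 in vehicle tumours. Chmp2a, of the ESCRT-III membrane-cutting complex, stood at 89.0 to 96.7 CPM in regressing tumours, 70.4 to 88.0 in terminal combination tumours and 65.7 to 78.8 in vehicle tumours. The lowest regressing tumour stood at 1.07 times the highest other for Tmed3, 1.02 times for Emc9 and 1.01 times for Chmp2a. Uxt, a prefoldin-like protein, stood at 13 to 15.5 CPM in regressing tumours, 8.08 to 12.9 in terminal combination tumours and 8.70 to 12.6 in vehicle tumours. Naa50, which acetylates protein ends, stood at 154 to 166 CPM in regressing tumours, 84.9 to 140 in terminal combination tumours and 121 to 152 in vehicle tumours. Anapc5, of the ubiquitin ligase that drives exit from mitosis, stood at 780, 386, 387 and 442 CPM in regressing replicates, against 263 to 379 in terminal combination and 288 to 339 in vehicle tumours, with replicate 1 far above the rest.

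Mitochondria gave 4 genes, with mean levels 1.26 to 1.42 times those of the other tumours. Fech, ferrochelatase, which completes haem, stood at 96.8, 81.3, 81.5 and 91.9 CPM in regressing replicates, at 70.1, 72.0, 71.3 and 75.4 in terminal combination replicates and at 72.1, 66.1, 67.0 and 64.1 in vehicle replicates. Hscb, a co-chaperone of iron-sulphur cluster assembly, stood at 15.2 to 18.6 CPM in regressing tumours, 8.28 to 13 in terminal combination tumours and 10.7 to 14.4 in vehicle tumours. Pcca, a subunit of propionyl-CoA carboxylase, stood at 24.5 to 27.9 CPM in regressing tumours, 12.7 to 20.1 in terminal combination tumours and 19.9 to 23.2 in vehicle tumours. All 4 genes varied less within the regressing group than any antibody gene did. Ndufb4, of respiratory complex I, stood at 39.1 to 53.7 CPM in regressing tumours, 23.0 to 39.0 in terminal combination tumours and 29.5 to 36.6 in vehicle tumours.

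The last genes of the set have no shared role. Cmbl, a hydrolase, stood at 6.14 to 13.9 CPM in regressing tumours, 3.55 to 5.47 in terminal combination tumours and 2.12 to 4.54 in vehicle tumours. Shpk, sedoheptulokinase, which makes a sugar phosphate of the pentose pathway, stood at 4.42 to 7.78 CPM in regressing tumours, 1.86 to 3.76 in terminal combination tumours and 2.35 to 4.21 in vehicle tumours. Ccdc122, a coiled-coil protein, stood at 6.47 to 9.93 CPM in regressing tumours, 2.57 to 5.86 in terminal combination tumours and 3.46 to 5.8 in vehicle tumours. Of these genes Cmbl and Ccdc122 were highest in regressing replicate 4, and Shpk in replicate 2. The pseudogene Rps18-ps3, which may share reads with Rps18, stood at 4.17 to 4.96 CPM in regressing tumours, 3.13 to 3.83 in terminal combination tumours and 3.39 to 3.96 in vehicle tumours. 9430038I01Rik, for which the annotation gives no role, stood at 4.45 to 5.61 CPM in regressing tumours, 3.03 to 4.07 in terminal combination tumours and 2.90 to 4.37 in vehicle tumours.

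The size of the difference split the genes. The mean regressing level was at least 4 times that of the other 8 tumours for 18 genes, 1.5 to 4 times for 20 and under 1.5 times for 12, with a median of 2.67. Those 12 lay between 1.22 and 1.42 times, at mean regressing levels of 4.51 to 186 CPM, and their coefficient of variation among regressing tumours was 3.24% to 16.6%. The lowest regressing value was a median of 1.11 times the highest other value, and at least 1.5 times it for 9 genes, counting Tyr. The genes nearest the threshold were Naa50 (1.008 times), Ndufb4 (1.003) and Slco3a1 (1.002) inside, and Gm11613 (0.999), Vkorc1 (0.997) and Zfp524 (0.996) outside.

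**Figure D4:**
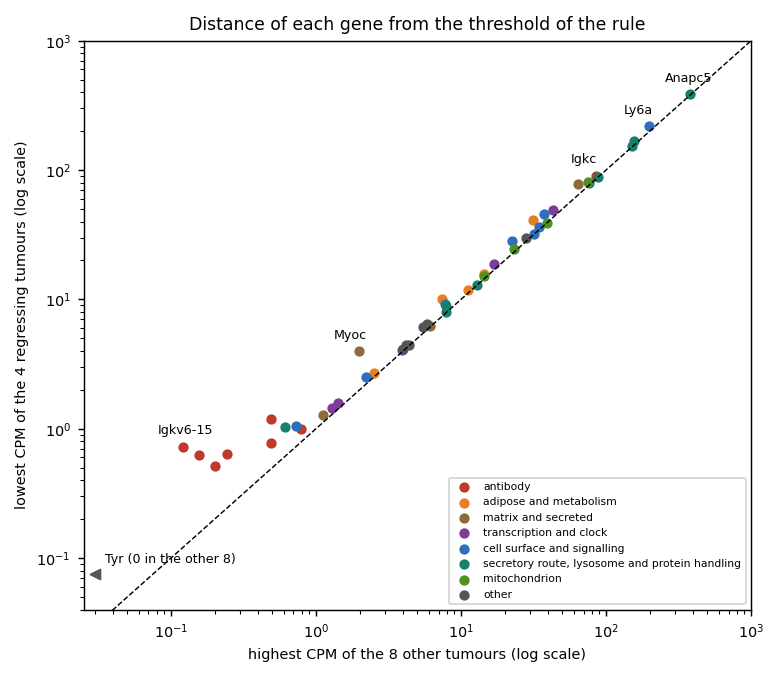
Lowest CPM of the 4 regressing tumours against highest CPM of the 8 other tumours for the 50 genes, on log axes, with points coloured by role. The dashed line is equality, and most genes lie close above it (median ratio 1.11) while 5 of the antibody genes and Myoc lie well above it. Tyr, at 0 in the 8 other tumours, has no ratio and is drawn as a triangle at the left edge.

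Regressing replicate 4 was the highest tumour for 26 genes, replicate 1 for 14, replicate 2 for 7 and replicate 3 for 3. Of the 42 genes that are not immunoglobulins, 24 were highest in replicate 4 and 22 were lowest in replicate 2, whereas 4 of the 8 antibody genes were highest in replicate 2 and none was highest in replicate 3. The highest of the other tumours was a terminal combination tumour for 28 genes and a vehicle tumour for 21. Under library sizes scaled by TMM, a normalisation to the bulk of genes, 45 of the 50 still met the rule, and those that did not included Anapc5, Chmp2a, Ndufb4 and Slco3a1. With only the 8 libraries whose titles lack FFT, 49 still met it, as fewer libraries make the rule easier, and Igkv6-15 fell under the mean of 1 CPM.

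Terminal combination against vehicle is the pair of groups whose difference the rule did not use. By the edgeR quasi-likelihood test no gene of 15650 passed an adjusted p of 0.05 (0%), while 930 had an unadjusted p under 0.05 (5.94%), and DESeq2 called 11 of 21932 (0.0502%), none of them among the 50. Of the 50 genes, 48 entered the edgeR fit, all but Tyr and Igkv8-28. Their smallest adjusted p was 0.819 in edgeR, and 2 had an unadjusted p under 0.05, Naglu with a log2 difference of 0.41 (SE 0.16) and Myoc with 1.65 (SE 0.75), each higher in 4 of 4 terminal combination tumours than the vehicle median. No member is thus shown to differ between these groups.

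The log2 difference of terminal combination minus vehicle was positive for 32 of the 48 genes, with a median of 0.16, against 50.4% of all genes in the fit and a median of 0.00. By mean CPM 30 of the 50 genes were higher in terminal combination tumours, against 41.1% of genes kept. All 5 fat and metabolism genes, all 4 matrix and secreted genes and all 4 transcription and clock genes had the higher mean in terminal combination tumours, and 1 of the 8 antibody genes did. Without vehicle replicate 4, 4 of the 8 antibody genes did, and without terminal combination replicate 4 or vehicle replicate 2 the antibody count was 2 or 0. The 5 fat and 4 matrix genes kept that direction with any of the 8 libraries left out, and without terminal combination replicate 2 the transcription and clock genes gave 3 of 4. Adipoq had the largest positive difference, 2.08 (SE 1.03), and Igkv3-4 the largest negative one, -1.86 (SE 1.41). Apart from Igkc, the antibody genes rest on few reads in both groups, and the highest count of Igkv3-4 outside the regressing tumours was 8.

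**Figure D5:**
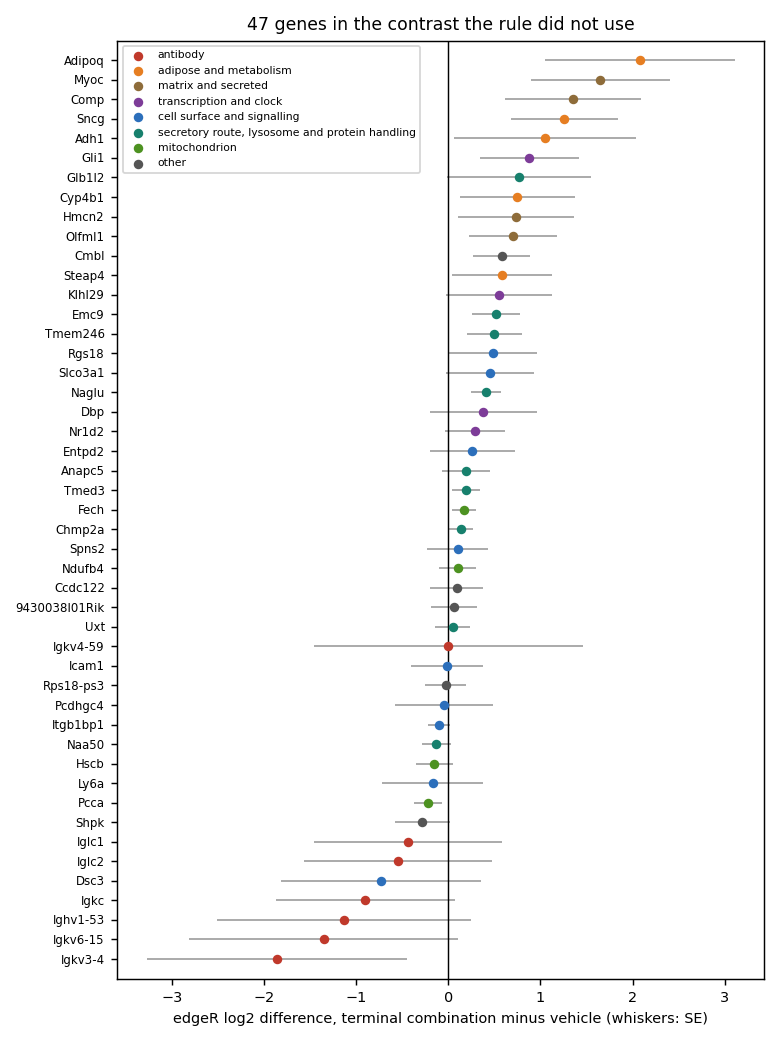
EdgeR log2 difference of terminal combination minus vehicle for 47 of the 48 genes in the fit (points, coloured by role; whiskers are SE). The 5 fat and metabolism genes and the 4 matrix genes all lie above 0, from 0.58 for Steap4 to 2.08 for Adipoq, and the antibody genes drawn lie below 0, down to -1.86 for Igkv3-4, except Igkv4-59 at 0.00; no gene passed the adjusted threshold.

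Regressing minus terminal combination and regressing minus vehicle, both used by the rule, gave log2 differences of 5.24 (SE 1.15) and 4.34 (SE 1.1) for Igkc, 2.05 (SE 1.01) and 4.12 (SE 1.11) for Adipoq, 1.45 (SE 0.74) and 2.81 (SE 0.78) for Comp, and 2.37 (SE 0.60) and 2.75 (SE 0.61) for Dbp. The comparisons share the regressing libraries. For Adipoq and Comp the terminal combination tumours lay between the other groups, and for Igkc they were lowest. That order for Igkc rests on vehicle replicate 4, without which the means were 13.6 CPM in terminal combination tumours and 6.63 ± 3.75 in vehicle tumours (SD, n = 3).

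Of the 22 marker and pathway lists read beside the set, 7 held a member, and 12 members were on a list. Antibody constant regions gave 3 of 11 kept genes, clock genes 2 of 15, and retinoid, steroid and xenobiotic metabolism 2 of 20. Lists for T cells, macrophages, endothelium, complement, interferon response and lymphoid homing held none, nor did mitosis and E2F genes, whose sum was 628 to 1870 CPM in regressing tumours, 585 to 1780 in terminal combination tumours and 1540 to 2450 in vehicle tumours. As 0.346% of all genes kept met the rule, a short list without a member says little. The mean was highest in regressing tumours for 16 of 19 T cell, 14 of 23 macrophage and 24 of 31 endothelial genes kept. It was so for 16 of 19 complement, 18 of 19 interferon, 7 of 7 homing and 0 of 22 mitosis genes, against 30.1% of all genes kept. In regressing replicates 1 to 4 the T cell list summed to 84.0, 183, 44.5 and 725 CPM and the interferon list to 575, 1930, 314 and 4160. Replicate 4 was also the highest regressing tumour for the endothelial, complement and homing sums, and replicate 2 for the macrophage sum. Genes of a list are read in the same libraries, so these counts are descriptions and were not tested. The sums of each of these lists overlapped between groups.

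RefSeq start windows of 300 bases were matched for 28 of the 50 genes, and the 8 antibody genes are not among them. With so few matched, a comparison of motif shares between the set and all windows is void, and matches are given for single genes only. The clock element CACGTG, on either strand, was in the windows of Adh1 and Naglu (7.15% of all 32851 windows held it) and not in those matched for Dbp or Nr1d2. TATAAA was in the windows of Icam1, Myoc, Steap4 and Tyr (13.6% of all windows).

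Some values carry an uncertainty of counting. Another expressed gene overlaps 10 of the genes, 3 of them on the same strand: Entpd2 with Npdc1, Pcdhgc4 with the gamma-protocadherin cluster and Uxt with Elk1. Spns2, Gli1, Dbp, Ccdc122, Pcca, Itgb1bp1 and Emc9 overlap a gene on the opposite strand. Whether counting used strand is not given in the sources used here, so these genes, the close copies among immunoglobulin genes and Rps18-ps3 are uncertain.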

How the data were processed

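Per the labels' protocols, RNeasy mini kits gave the RNA and TruSeq stranded mRNA kits the libraries. Each deposited file holds raw counts by Ensembl gene for 1 library. The submitters' processing notes name HISAT2 2.2.1, Salmon, DESeq2 1.24.0 and the builds mm10 and GRCm38.p6. Which of them counted the reads, on which strand and with which annotation is not given in the sources used here. Reads carry no molecular identifiers, so limits cover counting error only. Symbols and positions came from GENCODE M21 (54495 of 54532 identifiers matched). The treatment and harvest labels gave the groups, and no 2 libraries were duplicates (lowest chi-square per degree of freedom 52.6 over 66 pairs).

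CPM were computed from column totals and the rule was applied to genes with a mean of 1 CPM or more. Terminal combination against vehicle was tested with edgeR 4.0.16 (quasi-likelihood, TMM, filterByExpr with a minimum count of 10 and total of 15, all 12 libraries in 3 groups), with Benjamini-Hochberg adjustment over all genes tested. DESeq2 1.42.0 was the alternative tool. R 4.3.3, Python 3.11.15, pandas 2.3.3, numpy 2.4.6 and matplotlib 3.10.9 were used. The steps were tested on simulated data.

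The 50 genes, the lists and the role groups were chosen with earlier results of these data known, and the role groups and pigment genes after the values were seen. Genes were named by rule: the 15 with the largest ratio, the 10 with the highest regressing mean, those on a list, and 3 on either side of the threshold, with Nf1 and Cdkn2a. The remaining members are named to account for the set, and were chosen after their values were seen; 1 gene of the set is counted but not otherwise reported here. Other normalisations, filters, margins, left-out libraries and libraries lacking FFT were tried. Leaving out libraries within a role group, and terminal combination against vehicle in libraries lacking FFT, were added after seeing the data.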

Additional observations from a re-analysis of the deposited data

Results flagged for a closer look

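Among 148 groups of 4 values of the 50 genes, 16 held 1 tumour far from the other 3 by Dixon's criterion. Of these 16, 8 lay in the regressing group. The criterion flags about 1 in 20 groups by chance when values are normally distributed. CPM need not be, and some groups hold few reads, so no excess over that rate is claimed. In regressing replicate 2, Tyr stood at 21.9 CPM (others 0.0758 to 1.03) and Igkv8-28 at 26.5 (others 0.513 to 3.11). In regressing replicate 1, Igkv6-15 stood at 20.8 CPM (others 0.729 to 3.33) and Anapc5 at 780 (others 386 to 442). In regressing replicate 4, Icam1 stood at 135 CPM (others 45.5 to 57.5), Ccdc122 at 9.93 (others 6.47 to 6.73) and Slco3a1 at 61.3 (others 32.0 to 36.9). Comp stood at 204 CPM in regressing replicate 3 (others 78.4 to 88.1).

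Among terminal combination tumours, Pcca stood low at 12.7 CPM in replicate 2 (others 19.0 to 20.1). Dsc3 stood at 0.731 CPM in replicate 3, Igkv8-28 at 0.202 in replicate 1 and Igkv3-4 at 0.223 in replicate 4, each against values at or near 0 in the other 3. Among vehicle tumours, replicate 4 stood high for Igkc at 85.3 CPM (others 2.57 to 9.98) and for Ighv1-53 at 0.793 (others 0 to 0.0883). Replicate 1 stood high for Comp at 45.2 CPM (others 4.33 to 11) and for Myoc at 1.02 (others 0.164 to 0.305). No cause of these values was tested.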

How the results depend on the processing

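The rule gave 50 genes by column totals, 65 by TMM and 68 by median-of-ratios size factors, and 45 of the 50 were shared with each. It gave 102 genes with no filter on mean CPM, 30 at a mean of 5 CPM or more and 9 at a margin of 1.5 times or more. Fewer libraries make the rule easier by construction: 240 genes met it in the libraries whose titles lack FFT, 201 without regressing replicates 1 and 4, and 60 to 151 with 1 library left out. The left-out libraries that moved the count by over 1.5 times were regressing replicates 1 (84), 2 (118) and 3 (151), terminal combination replicate 4 (108) and vehicle replicate 4 (76). In terminal combination against vehicle, edgeR called 0 genes under every alternative run, 0 to 0 with 1 library left out, and DESeq2 called 11. The number of members with the higher mean in terminal combination tumours ran from 26 to 34 over its alternatives. No paired analysis was possible because the labels carry no replicate numbers that link the groups. At this depth the 1 Tyr read of regressing replicate 4 could not be told from 0, and 8 members had a lowest regressing count of 20 or fewer.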

Other observations

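Immunoglobulin genes outside the set, chosen after their values were seen, also had a different leading tumour from gene to gene. Igkv3-2 reached 1.37, 126, 9.62 and 0.834 CPM in regressing replicates 1 to 4, against 0 to 2.35 in terminal combination and 0 to 16.6 in vehicle tumours. Igkv5-39 stood at 1.26, 3.98, 0 and 45.5 CPM in regressing replicates, against 0 to 0.157 in terminal combination and 0 to 0.244 in vehicle tumours. Replicate 2 thus led for Igkv3-2 and replicate 4 for Igkv5-39. Ighd, the IgD constant region carried by resting B cells, stood at 0.856, 0.468, 0.638 and 65.0 CPM in regressing replicates, against 0 to 0.837 in terminal combination and 0.776 to 1.64 in vehicle tumours. Ighg2c, an IgG constant region, stood at 24.5, 41.0, 13.3 and 81.7 CPM in regressing replicates, against 0.626 to 4.37 in terminal combination and 1.13 to 23.6 in vehicle tumours. IgD reads were thus nearly confined to replicate 4 among the regressing tumours, and IgG reads were present in all 4.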
